A study of Mus musculus with 7 samples.

Results

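Small multi-template clones are the T-cell receptor β-chain (TCRβ) rearrangements that were seen more than once in a tumor but remained rare in it. They were examined in CD8+ tumor-infiltrating lymphocytes (TILs) of 7 mice. Members were chosen by their template number, the number of input DNA molecules estimated for a rearrangement. A member is an in-frame rearrangement with at least 2 templates and a frequency of at most 0.1% of the in-frame templates of its mouse. This rule selected 2503 of the 6907 in-frame rearrangements (36.2%), which held 7473 of 66557 in-frame templates (11.2%). All mice were C57BL/6, aged 6 to 8 weeks, bore subcutaneous tumors of the A223 squamous cell carcinoma line and received anti-PD-L1 once tumors measured 250 to 350 mm3. The 3 responders (R; 1R, 2R and 3R) and 4 non-responders (NR; 4NR, 5NR, 6NR and 7NR) differed in the later course of the tumor, with 1 library of each mouse. Untreated mice were not analysed here, so R and NR can be compared only under treatment. Only genomic TCRβ DNA was sequenced, from cells enriched for CD8 on beads, and the CD8 label could not be checked against expressed markers.

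A TCRβ chain is assembled in the thymus by joining one V, one D and one J gene segment. At both joints nucleases trim the segment ends and terminal deoxynucleotidyl transferase adds non-templated bases (N insertions), so the third complementarity-determining region (CDR3), which touches the peptide, differs from clone to clone. A rearrangement that falls out of frame makes no receptor and is carried as a silent second allele, so its gene use is not shaped by selection on its own product. The mouse Trb locus holds a pair of D-J clusters, and TCRBD01-01 lies upstream of both J clusters while TCRBD02-01 lies upstream of the second.

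The most abundant member of each mouse (the first in sequence order where several tied) shows what such a rearrangement looks like. Capitals mark the CDR3 from its first cysteine codon to the last codon read, and the lower-case bases before it belong to the V segment.
1R, TCRBV13-02 with TCRBJ02-07, 13 templates: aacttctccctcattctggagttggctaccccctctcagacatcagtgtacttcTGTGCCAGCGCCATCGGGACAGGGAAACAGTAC
2R, TCRBV13-02 with TCRBJ02-07, 8 templates: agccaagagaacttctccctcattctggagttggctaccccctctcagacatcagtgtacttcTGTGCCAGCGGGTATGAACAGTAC
3R, TCRBV14-01 with TCRBJ01-01, 9 templates: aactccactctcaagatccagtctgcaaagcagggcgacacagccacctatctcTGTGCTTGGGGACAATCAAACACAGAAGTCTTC
4NR, TCRBV14-01 with TCRBJ02-05, 5 templates: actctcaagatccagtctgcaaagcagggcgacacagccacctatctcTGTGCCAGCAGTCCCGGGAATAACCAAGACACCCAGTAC
5NR, TCRBV26-01 with TCRBJ02-07, 11 templates: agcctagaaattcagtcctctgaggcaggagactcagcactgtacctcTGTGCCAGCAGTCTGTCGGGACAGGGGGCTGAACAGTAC
6NR, TCRBV14-01 with TCRBJ01-01, 2 templates: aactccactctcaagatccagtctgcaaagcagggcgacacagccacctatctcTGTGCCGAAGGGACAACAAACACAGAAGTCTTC
7NR, TCRBV26-01 with TCRBJ02-01, 15 templates: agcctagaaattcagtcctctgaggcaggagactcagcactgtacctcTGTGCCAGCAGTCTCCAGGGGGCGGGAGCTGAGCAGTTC
These 7 rearrangements encoded CDR3s of 9 to 14 residues (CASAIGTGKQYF, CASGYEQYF, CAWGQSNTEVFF, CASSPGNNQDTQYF, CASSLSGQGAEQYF, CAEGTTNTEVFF and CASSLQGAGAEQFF, in the same order). The members of 3R and 6NR shown were each listed in other mice as well, with 92 templates in 5NR for the former and 79 templates in 3R for the latter.

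The tumors contributed unequally. The R mice held 560, 295 and 378 members (1R to 3R) and the NR mice 336, 348, 72 and 514 (4NR to 7NR). In-frame templates ranged from 2332 in 6NR to 15182 in 7NR, and this number fixed how many templates a member could have. The highest template number inside the limit was 13, 8, 9, 5, 11, 2 and 15 in 1R to 7NR (0.0858 to 0.0988% of templates). The first rearrangements outside it had 14, 9, 10, 6, 12, 3 and 17 templates (0.101 to 0.129%). In 6NR the class therefore held rearrangements with exactly 2 templates and no others. Over all mice 1342 members had 2 templates (53.6%), 728 had 3 (29.1%) and 433 had 4 or more (17.3%). Members made up 11.2% ± 1.18 (SD, n = 3) of in-frame templates in R mice and 10.9% ± 4.66 (SD, n = 4) in NR mice, as a description, because these values chose them. A single template was worth between 0.00659 and 0.0429% of a library, and a count of 0 allows 3 templates (0.0198 to 0.129%).

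A part of the members carried a nucleotide sequence that was also listed in another library. This held for 242 members (9.67%), with 30, 23, 54, 15, 49, 20 and 51 in 1R to 7NR. For 116 of these (47.9%) the highest listing elsewhere was a larger clone, that is, one above 0.1% of its mouse. Of the 51 in 7NR, 39 had such a larger counterpart and 17 were listed in 6NR, and of the 30 in 1R, 23 were listed in 4NR. Whether these are independent rearrangements or DNA carried between libraries was not tested, and calls lost without shared rearrangements are named beside the results below. A further check looked for close relatives, sequences in the same mouse with at least 10 times the templates that had the same CDR3 bases or lay 1 base apart. Such a relative was found for 64 members (2.56%), 351 of 4011 single-template rearrangements (8.75%) and 112 of 1074 out-of-frame rearrangements with the same template numbers (10.4%). A relative apart by 1 inserted or deleted base was found for 101 of these out-of-frame rearrangements (9.40%) and for 38 members (1.52%). Whether such out-of-frame entries came from reads of the more abundant sequence was not tested.

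J gene use differed widely between small clones and single-template rearrangements. TCRBJ02-07 was carried by 1001 members (40.1%), with 38.4, 39.7 and 40.2% in the R mice and 44.3, 39.8, 27.8 and 41.1% in the NR mice, in the order of their numbers. Among single-template rearrangements of the same mice it made up 6.31, 10.6, 12.7, 9.35, 15.9, 12.8 and 11.2%. The ranges did not overlap, in a comparison in which 91.7% of the J genes tested differed. TCRBJ02-01 followed with 340 members (13.6%), then TCRBJ01-04 with 199 (7.96%) and TCRBJ01-02 with 183 (7.32%). TCRBJ02-06, listed as a J pseudogene by RefSeq (GRCm38.p6), was named in 2 members, and 4 members had no J gene assigned. The 6 members of TCRBJ02-06 or without a J gene entered no J gene test in which the gene had fewer than 10 rearrangements, which left 2497 members.

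**Figure D1:**
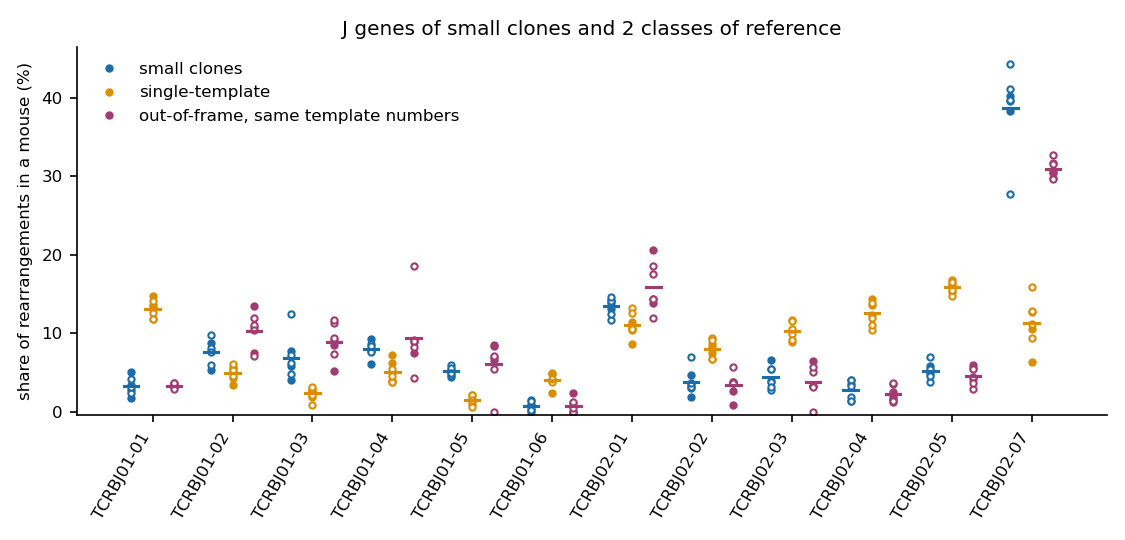
Share of rearrangements (%) that carried each J gene, by class. Each point is 1 mouse (filled, R; open, NR) and each bar is the mean of 7 mice. TCRBJ02-07 lay between 27.8 and 44.3% in small clones and between 6.31 and 15.9% in single-template rearrangements.

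With the mouse as a block, 11 of 12 J genes tested (91.7%) differed between small and single-template rearrangements at a Benjamini-Hochberg adjusted p below 0.05 in edgeR's quasi-likelihood test. So J gene use differed as a whole, and a call on a single J gene says little about that gene alone. The 5 J genes that were higher in small clones were TCRBJ02-07 (log2 fold change 1.87 ± 0.17 (SE), adjusted p = 1.94e-16), TCRBJ01-05 (1.87 ± 0.25), TCRBJ01-03 (1.43 ± 0.23), TCRBJ01-04 (0.69 ± 0.19) and TCRBJ01-02 (0.62 ± 0.19). The 6 lower ones were TCRBJ01-06 (-2.64 ± 0.33), TCRBJ01-01 (-2.11 ± 0.20), TCRBJ02-04 (-2.01 ± 0.21), TCRBJ02-05 (-1.65 ± 0.18), TCRBJ02-03 (-1.18 ± 0.19) and TCRBJ02-02 (-1.12 ± 0.21). TCRBJ01-01, for example, fell from 13.3% of single-template rearrangements (11.8 to 14.8% by mouse) to 2.96% of members (1.79 to 5.08%). TCRBJ02-01 had a log2 fold change of 0.31 ± 0.16 (adjusted p = 0.0634).

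The same comparison was made among out-of-frame rearrangements, which make no receptor. There 12 of 12 J genes (100%) differed between rearrangements with the template numbers of small clones and those with 1 template, 6 in each direction. For every J gene with a call in frame the out-of-frame difference had the same sign, for instance -1.59 ± 0.14 for TCRBJ01-01, -2.33 ± 0.18 for TCRBJ02-04 and 1.62 ± 0.25 for TCRBJ01-05 (log2 ± SE). TCRBJ02-07 had an in-frame difference of 1.87 and an out-of-frame difference of 0.23 ± 0.08 (adjusted p = 0.0196, edgeR), and the gap between them was not tested.

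The same values can be read as the share of rare rearrangements of each J gene that were listed with at least 2 templates. In frame this share was 69.7% for TCRBJ02-07 (95% Wilson interval 67.3 to 72%), 68.6% for TCRBJ01-05 and 61.6% for TCRBJ01-03, against 12.2% for TCRBJ01-01 and 8.74% for TCRBJ01-06. Out of frame it was 32.9% for TCRBJ02-07 (30.1 to 35.9%), 56.8% for TCRBJ01-05, 55.4% for TCRBJ01-03 and 12% for TCRBJ01-01. The intervals of both frames overlapped for 11 of the 12 J genes, and did not for TCRBJ02-07. Overlap does not show that the shares were equal. Of the 12 J genes, the in-frame share was lower only for TCRBJ01-02 (48.2 against 48.9%) and TCRBJ01-06 (8.74 against 10%). It was higher for all the others. Besides TCRBJ02-07 these included TCRBJ01-05 (68.6 against 56.8%), TCRBJ02-01 (43.1 against 35.7%) and TCRBJ01-04 (49.5 against 43.0%). They also included TCRBJ01-03 (61.6 against 55.4%), TCRBJ02-04 (13.5 against 7.47%) and TCRBJ02-03 (21.1 against 16.1%). Close relatives were also unequal here, at 40.9% of in-frame and 31.4% of out-of-frame single-template TCRBJ02-07 rearrangements. They made up 3.80% of TCRBJ02-07 members and 17.7% of out-of-frame TCRBJ02-07 rearrangements with the template numbers of small clones. Without them the shares of TCRBJ02-07 were 78.9% in frame and 37.0% out of frame. The intervals cover counting error only, because templates were estimated from PCR products. They pool the rearrangements of all mice and leave out the spread between mice.

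**Figure D2:**
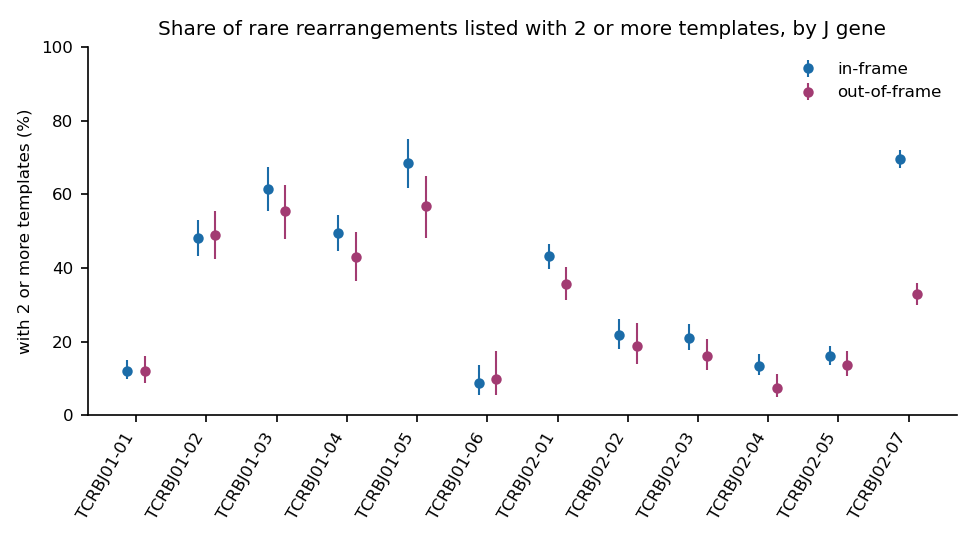
Share (%) of rare rearrangements listed with at least 2 templates for each J gene, in frame and out of frame, over all 7 mice, with 95% Wilson intervals. TCRBJ02-07 stood at 69.7% in frame and 32.9% out of frame, while TCRBJ01-01 stood at 12.2 and 12%.

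TCRBJ02-07 did not increase steadily with template number. It made up 10.9% of in-frame rearrangements with 1 template, 28.2% of those with 2, 64.9% of those with 3, 39.8% of those with 4 and 31.2% of those with 5 or more up to the limit of the mouse. At 3 templates the share lay between 59.4 and 68.1% in each of the 7 mice. In 6NR rearrangements with 3 or 4 templates lay above the limit, so those counted here were not members. Out of frame the series was 25.3, 23.1, 53.6, 35.4 and 19.2%, with the highest share again at 3 templates (45.7 to 58.3% by mouse). How the template number was estimated for each primer pair is not given in the sources used here, and its part in the J gene differences was not tested.

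**Figure D3:**
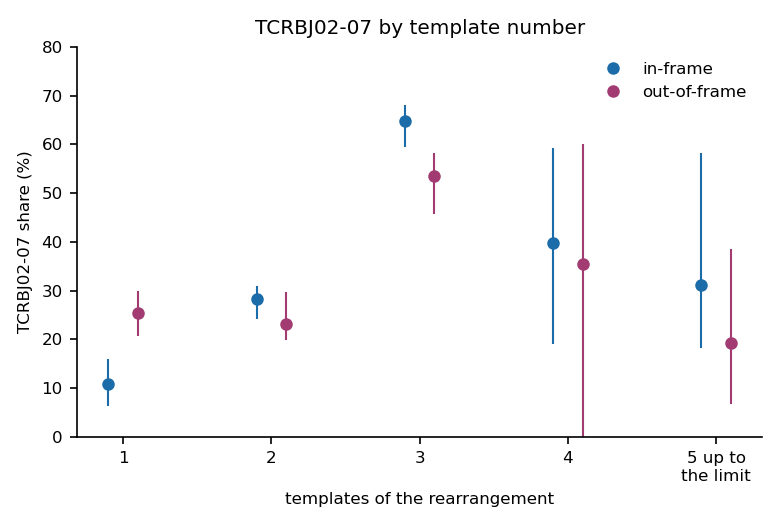
Share of TCRBJ02-07 (%) among rearrangements with 1, 2, 3, 4, or 5 or more templates up to the limit, in frame and out of frame. Each point is the share over all mice, and each line runs from the lowest to the highest mouse. The last category covers 6 mice, without 6NR, whose rearrangements with 3 or 4 templates lay above the limit. The in-frame share was 64.9% at 3 templates and 28.2% at 2.

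Against out-of-frame rearrangements with the same template numbers, 1 of 12 J genes (8.33%) differed in small clones. This was TCRBJ02-07, with a log2 fold change of 0.50 ± 0.06 (SE) and an edgeR adjusted p of 1.91e-06. Its out-of-frame shares were 29.8, 30.6, 30.5, 32.7, 31.7, 29.6 and 31.5% in 1R to 7NR, so small clones were higher in 6 mice and lower in 6NR. Restricted to exactly 2 templates, the difference was 0.27 (adjusted p = 0.305). Against larger clones of the same mouse, 2 of 12 J genes (16.7%) passed in edgeR and none in DESeq2. TCRBJ01-03 was higher in small clones (1.12 ± 0.40) and TCRBJ02-05 lower (-0.84 ± 0.30), both with an adjusted p of 0.0495. At most 1 J gene passed when any 1 mouse was left out, and without shared rearrangements TCRBJ01-03 had 1.38 (adjusted p = 0.176) and TCRBJ02-05 turned to 0.36 (adjusted p = 0.629). TCRBJ02-07 made up 39.8% of larger clones (28.9 to 55.4% by mouse), with a log2 difference of 0.09 ± 0.16 (adjusted p = 0.648). The highest value was that of 6NR, where 32 of the 74 larger clones had 3 templates.

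V gene use was spread more evenly. The V genes with most members were TCRBV19-01 with 249 (9.95%), TCRBV13-02 with 213 (8.51%), TCRBV12-01 with 199 (7.95%), TCRBV16-01 with 173 (6.91%), TCRBV13-03 with 169 (6.75%) and TCRBV03-01 with 167 (6.67%). Together these 6 covered 46.7% of members, and the 6 most used V genes of larger clones covered 61.3% of those. By place in the locus, TCRBV01 to TCRBV05 held 609 members (24.3%), TCRBV12 held 314 (12.5%), TCRBV13 held 546 (21.8%), TCRBV14 to TCRBV17 held 382 (15.3%), TCRBV19 to TCRBV30 held 582 (23.3%) and TCRBV31 held 70 (2.80%). TCRBV31, which lies on the far side of the J clusters in opposite orientation, took 2.50 to 3.11% of members in every mouse. RefSeq (GRCm38.p6) lists 4 of the 26 V segments named in members as pseudogenes (TCRBV22-01, TCRBV27-01, TCRBV28-01 and TCRBV29-01), and these held 126 members, 120 of them TCRBV29-01. For TCRBV29-01 the log2 difference from out-of-frame rearrangements of the same template numbers was 0.44 ± 0.28 (SE, edgeR adjusted p = 0.196). The paper also lists a TCRBV29-01 rearrangement among the most abundant of 2R. Whether these 4 segments make a working chain was not tested. The 5 V genes with fewer than 10 members held 10 members between them.

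**Figure D4:**
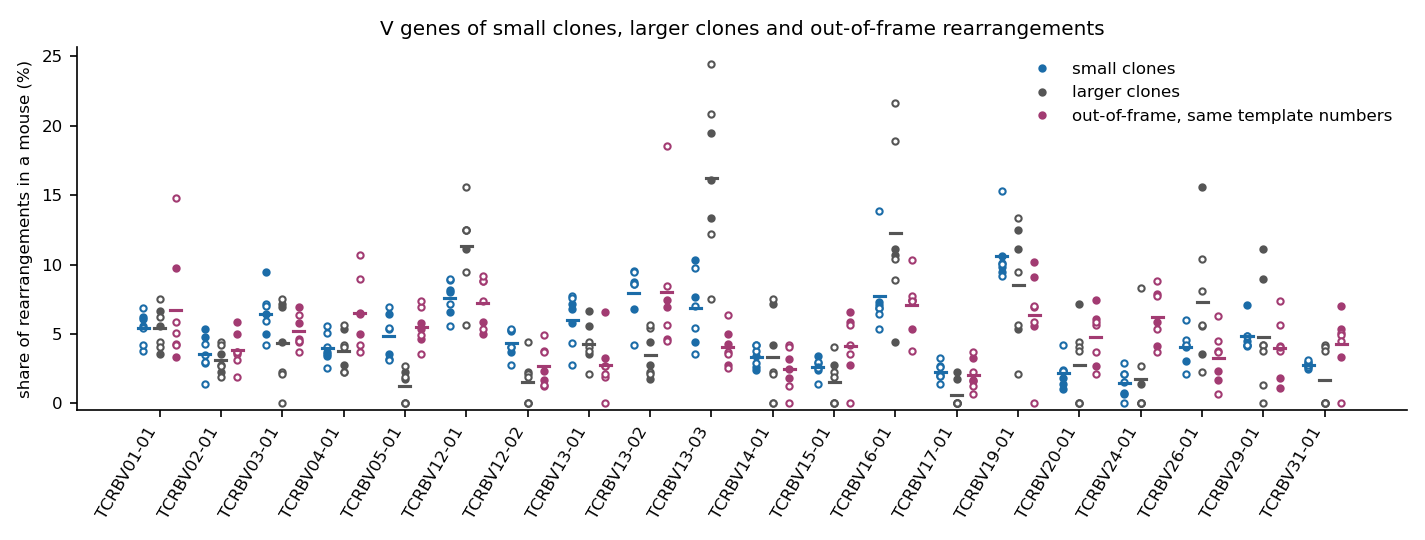
Share of rearrangements (%) that carried each V gene, by class. Each point is 1 mouse (filled, R; open, NR) and each bar is the mean of 7 mice. TCRBV13-03 took 6.75% of small clones and 16% of larger clones, and TCRBV24-01 took 1.56% of small clones and 6.61% of out-of-frame rearrangements.

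Few V genes separated small clones from single-template rearrangements. Of 24 V genes, 2 (8.33%) passed in edgeR, both lower in small clones, and none passed in DESeq2. TCRBV13-02 made up 8.57, 6.78, 8.73, 9.52, 9.48, 4.17 and 8.56% of small clones in 1R to 7NR, and 10.5 to 12.9% of single-template rearrangements. The groups did not overlap, and the log2 fold change was -0.48 ± 0.12 (SE, adjusted p = 0.0114). TCRBV24-01 had -0.88 ± 0.26 (adjusted p = 0.0201). It made up 0.714, 0.678, 2.12, 2.08, 2.87, 0 and 1.56% of small clones and 2.40, 1.18, 2.98, 2.12, 6.69, 2.14 and 1.55% of single-template rearrangements in 1R to 7NR, so the groups overlapped and 4NR and 7NR had nearly equal shares in both classes. Without 5NR it was -0.62 (adjusted p = 0.165), and without close relatives -0.51 (adjusted p = 0.216). The call of TCRBV24-01 was lost as well without 1R (adjusted p = 0.0901) and without 2R (adjusted p = 0.0638).

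Against larger clones, 5 of 21 V genes (23.8%) differed in edgeR and 3 in DESeq2. TCRBV13-03 made up 7.68, 4.41, 10.3, 3.57, 5.46, 9.72 and 7.00% of small clones and 16.1, 13.3, 19.4, 24.4, 20.8, 12.2 and 7.55% of larger clones, lower in small clones in 7 of 7 mice (log2 -1.05 ± 0.25, edgeR adjusted p = 0.000849). This difference was 0.08 (adjusted p = 0.878) when rearrangements shared between mice were removed and 0.26 (adjusted p = 0.717) among TCRBJ02-07 rearrangements alone. TCRBV05-01 (2.07 ± 0.55), TCRBV12-02 (1.85 ± 0.55), TCRBV13-02 (1.36 ± 0.37) and TCRBV17-01 (2.10 ± 0.79) were higher in small clones. These 4 are rare among larger clones, with 5, 5, 14 and 2 of 393 larger clones. None of these 4 calls held throughout. TCRBV05-01 lost its call at a frequency limit of 0.0005 (log2 0.94, edgeR adjusted p = 0.0617). TCRBV13-02 lost it among TCRBJ02-07 rearrangements alone (log2 0.77, edgeR adjusted p = 0.268). More runs changed the calls of TCRBV12-02 and TCRBV17-01. Both were lost without shared rearrangements (adjusted p = 0.0758 for each), which left 2 V genes. Both were lost without 3R too (adjusted p = 0.0738 and 0.131), which left 3 V genes, and with DESeq2 (adjusted p = 0.0642 and 0.0924). TCRBV17-01 was lost as well without 4NR, 5NR or 7NR (adjusted p = 0.0947, 0.107 and 0.0906), without TMM scaling (0.0567), without the filter on low counts (0.0562) and at frequency limits of 0.0005 (0.101) and 0.002 (0.052).

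Against out-of-frame rearrangements of the same template numbers, 11 of 23 V genes (47.8%) differed in edgeR and 10 in DESeq2. The 4 that were higher in small clones were TCRBV13-01 (log2 1.06 ± 0.27), TCRBV12-02 (0.81 ± 0.30), TCRBV13-03 (0.74 ± 0.25) and TCRBV19-01 (0.45 ± 0.19). The 7 that were lower were TCRBV22-01 (-3.51 ± 0.85), TCRBV21-01 (-2.86 ± 0.81), TCRBV24-01 (-2.11 ± 0.29), TCRBV20-01 (-1.39 ± 0.30), TCRBV04-01 (-0.99 ± 0.24), TCRBV31-01 (-0.90 ± 0.28) and TCRBV15-01 (-0.72 ± 0.29). TCRBV24-01 made up 0.714, 0.678, 2.12, 2.08, 2.87, 0 and 1.56% of small clones and 7.91, 4.13, 5.88, 8.81, 7.75, 3.70 and 5.38% of out-of-frame rearrangements, with no overlap (adjusted p = 4.17e-10). TCRBV22-01 rests on 1 small clone against 10 out-of-frame rearrangements, and TCRBV21-01 on 2 against 9. The count of V genes fell to 6 without 1R, without 3R or without 7NR. Several of these calls depended on single mice. TCRBV19-01 lost its call without 1R, 2R, 3R, 5NR or 7NR (adjusted p = 0.201, 0.0683, 0.0636, 0.139 and 0.0649) and without shared rearrangements (adjusted p = 0.07). TCRBV15-01 lost it without 2R, 3R, 4NR or 7NR (adjusted p = 0.0742, 0.12, 0.117 and 0.0789) and with DESeq2 (adjusted p = 0.0534). TCRBV12-02 lost it without 1R, 2R or 7NR (adjusted p = 0.113, 0.0542 and 0.0594), TCRBV13-03 without 1R or 3R (adjusted p = 0.115 and 0.116), and TCRBV31-01 without 1R (adjusted p = 0.0767).

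A D gene was assigned in 2060 members (82.3%), was tied between both D genes in 382 and was absent in 61. Among members with a J gene of the first cluster, 529 carried TCRBD01-01 and 50 (8.64%) carried TCRBD02-01. Among those with a J gene of the second cluster, 577 carried TCRBD01-01 and 904 (61.0%) carried TCRBD02-01. In the germline order TCRBD02-01 lies downstream of the first J cluster. The D gene was called from the few bases that trimming left, and whether the 50 calls are right was not tested. The J genes of the second cluster were carried by 68.8, 69.5, 72, 72, 68.7, 58.3 and 70.4% of members in 1R to 7NR.

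CDR3 length averaged 13.75, 13.76, 13.74, 13.66, 13.88, 13.97 and 13.73 residues in small clones of 1R to 7NR. Over all members it ran from 9 to 18 residues, and 830 members (33.2%) had 14. Single-template rearrangements of the same mice averaged 14.06 to 14.18 residues. Small clones were shorter in 7 of 7 mice, with a mean difference of -0.327 residues (exact sign-flip permutation test, two-sided p = 0.0156, the smallest that 7 mice allow). After Benjamini-Hochberg adjustment over the 15 within-mouse measures the value was 0.0781, so the difference did not pass. CDR3 length also differed between J genes, at 13.4 residues in members and 13.7 in single-template rearrangements with TCRBJ02-07, which was higher in small clones, and at 13.1 and 13.3 residues with TCRBJ01-01, which was lower. Against larger clones the length differed by -0.177 residues (lower in 5 of 7 mice, adjusted exact permutation p = 0.234).

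**Figure D5:**
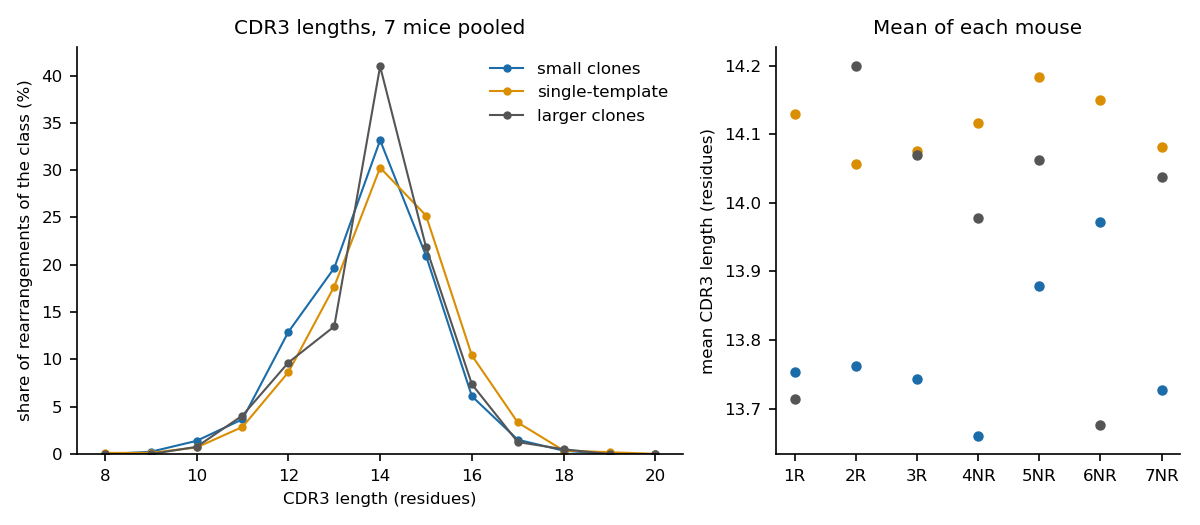
CDR3 length in residues. The left panel gives the share (%) of rearrangements of each length for each class over 7 mice, and the right panel the mean of each mouse. Small clones averaged 13.66 to 13.97 residues and single-template rearrangements 14.06 to 14.18 residues.

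Small clones carried 3.20, 3.38, 3.42, 3.49, 3.55, 3.62 and 3.12 N insertions on average in 1R to 7NR. Of these, 1.78 lay between V and D and 1.59 between D and J in the members with a D gene, 271 members had none, and the most was 20. Larger clones had 2.99 ± 0.31 (SD, n = 7) against 3.40 ± 0.18 in small clones, a difference of 0.403 bases with 6 of 7 mice higher (adjusted exact permutation p = 0.0781). Out-of-frame rearrangements of the same template numbers had 4.02 ± 0.34, and small clones were lower in 6 of 7 mice, with a mean difference of -0.618 (adjusted exact permutation p = 0.0781). Single-template rearrangements had 3.46 ± 0.03, a difference of -0.0625 (adjusted exact permutation p = 0.469). J genes of the second cluster were 7.32 percentage points less used in small than in larger clones and 7.52 points more used than out of frame, each in 6 of 7 mice (adjusted exact permutation p = 0.0781 for both). None of the 15 within-mouse measures reached an adjusted p below 0.05.

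R and NR mice were compared for the small clones alone, the question the design poses. None of 21 V genes (0%) and none of 12 J genes (0%) differed in edgeR, none at an unadjusted p below 0.05 either, and none in DESeq2 (smallest edgeR adjusted p = 0.857 for V and 0.972 for J). TCRBJ02-07 made up 39.4% ± 0.933 (SD, n = 3) of small clones in R mice and 38.2% ± 7.23 (SD, n = 4) in NR mice. CDR3 length was 13.75 ± 0.00967 residues in R and 13.81 ± 0.142 in NR, and N insertions were 3.33 ± 0.118 and 3.45 ± 0.227. Members without N insertions made up 11.2% ± 2.29 in R and 9.03% ± 3.39 in NR, TCRBD02-01 45.4% ± 3.77 and 46.2% ± 1.76, and J genes of the second cluster 70.1% ± 1.68 and 67.4% ± 6.17. The R and NR values overlapped in each of these 5 measures, and each exact permutation test had a two-sided p of 0.457 or more (adjusted 0.743). With 35 divisions of the mice no p below 0.0286 can be reached. The number of mice limits the precision, and equal values in R and NR are not shown by these tests.

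Sharing between mice was compared between small clones and single-template rearrangements. A nucleotide sequence listed in another mouse was found for 5.36, 7.80, 14.3, 4.46, 14.1, 27.8 and 9.92% of small clones in 1R to 7NR and for 2.14, 2.35, 6.72, 2.47, 4.85, 28.3 and 3.92% of single-template rearrangements. It was higher in small clones in 6 of 7 mice, by 4.70 percentage points on average (exact permutation p = 0.0313, adjusted 0.0781), which did not pass. Larger clones were shared in 53.9% and out-of-frame rearrangements of the same template numbers in 10.1%. Of 2448 distinct member sequences, 2400 were members in 1 mouse, 42 in 2, 5 in 3 and 1 in 4. The last was a TCRBV19-01 rearrangement with 2 templates in 1R, 2 in 3R, 9 in 5NR and 2 in 7NR, whose CDR3 (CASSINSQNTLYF) had 1 N base and no D gene assigned. It is shown because it was a member in most mice.
TCRBV19-01 with TCRBJ02-04: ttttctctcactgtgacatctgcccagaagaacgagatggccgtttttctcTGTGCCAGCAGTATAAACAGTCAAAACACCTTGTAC

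CDR3 amino acid sequences were compared between mice as well. Identical DNA encodes the identical CDR3, so these sequences cannot recur less often than DNA. Among 2302 distinct CDR3 amino acid sequences, 2195 were made by members of 1 mouse, 83 by members of 2, 18 of 3, 4 of 4, 1 of 5 and 1 of 7. A total of 450 members (18%) had a CDR3 amino acid sequence found in another mouse, and for 208 of them the nucleotide sequence was found in no other mouse. Those 208 had 2.11 ± 0.42 N insertions (mean of mouse means ± SD), and members with a CDR3 found in 1 mouse only had 3.55 ± 0.20. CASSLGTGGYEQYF was made by members of 5 mice through 6 different rearrangements of 4 V genes, all with TCRBJ02-07. Outside the class it was carried by 3 larger clones in 3 mice, with up to 32 templates, and by 2 single-template rearrangements. The paper lists this CDR3 in every mouse. The CDR3s of the 6 members are shown to let the different routes to the same residues be compared, with N bases in capitals and the segment-encoded bases in lower case.
1R, TCRBV12-01, 1 N bases: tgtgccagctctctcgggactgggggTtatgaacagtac
2R, TCRBV12-01, 2 N bases: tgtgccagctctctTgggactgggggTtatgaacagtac
4NR, TCRBV12-02, 0 N bases: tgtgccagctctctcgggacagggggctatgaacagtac
5NR, TCRBV14-01, 2 N bases: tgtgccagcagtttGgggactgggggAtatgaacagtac
7NR, TCRBV16-01, 0 N bases: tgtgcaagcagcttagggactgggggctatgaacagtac
7NR, TCRBV12-01, 0 N bases: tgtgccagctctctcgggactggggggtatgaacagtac
No N base was called in 3 of these 6 rearrangements, and at most 2 in the others. The TCRBV12-01 rearrangement of 7NR, 1 of these 3, lay 1 base apart from a sequence of its mouse with at least 10 times the templates. Whether it was a separate rearrangement was not tested. A CDR3 of the same length with threonine in place of this leucine was also carried by 1 larger clone and 3 single-template rearrangements. Members of 4 mice made it through 6 rearrangements of TCRBV19-01 with TCRBJ02-07, which had 2 to 5 N bases.
1R, 3 templates, 4 N bases: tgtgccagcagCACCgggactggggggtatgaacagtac
3R, 3 templates, 5 N bases: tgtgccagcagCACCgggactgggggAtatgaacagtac
3R, 3 templates, 4 N bases: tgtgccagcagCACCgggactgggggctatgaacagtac
5NR, 3 templates, 2 N bases: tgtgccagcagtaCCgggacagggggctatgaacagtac
5NR, 10 templates, 3 N bases: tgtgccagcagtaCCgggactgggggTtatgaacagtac
7NR, 4 templates, 4 N bases: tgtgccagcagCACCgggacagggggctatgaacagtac
Each of these 6 nucleotide sequences was listed in 1 mouse, with 3 to 10 templates.

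The CDR3 made by members of all 7 mice had 15 residues and joined TCRBV16-01 to TCRBJ02-07 in 17 of its 18 member rearrangements, with TCRBV15-01 in the other one. The same CDR3 also formed larger clones in all 7 mice (20 rearrangements, up to 2850 templates) and 40 single-template rearrangements. Of the 18 members, 14 were close relatives of a more abundant clone of their own mouse. Both sequences below have identical CDR3 bases, in capitals, and are shown because the first was listed with 120 templates in 1R and 150 in 3R, and with 2, 2713, 992 and 554 templates in the NR mice by number, and the second, with 2 templates each in 5NR, 6NR and 7NR, was 1 inserted or deleted base apart from it in the V segment.
Sequence of the abundant clone, a member in 4NR: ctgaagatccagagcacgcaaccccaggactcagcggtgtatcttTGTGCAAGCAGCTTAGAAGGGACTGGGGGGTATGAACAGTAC
Member in 5NR, 6NR and 7NR: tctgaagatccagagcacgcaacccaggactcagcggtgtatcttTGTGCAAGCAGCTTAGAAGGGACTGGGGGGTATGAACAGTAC
Whether the second sequence came from a separate T cell or from a read of the first was not tested. Over all members, 71 (2.84%) had the CDR3 amino acid sequence of a larger clone in their own mouse. By contrast none of the 8 members with a recurrent 15-residue CDR3 of TCRBV16-01 and TCRBJ01-04, found in 4 mice through 5 sequences, had a close relative, and no larger clone carried it.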

How the data were processed

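Genomic DNA of bead-selected CD8+ TILs was amplified by multiplex PCR of the TCRβ locus and sequenced by a commercial service, and the authors deposited 1 table per mouse with a template count for each rearrangement, the estimated number of input molecules. The tables also hold the V, D and J calls, CDR3 lengths and N insertions made by the service. The aligner version and genome build are not given in the sources used here, so no coordinates are printed. Because amplification and primers can differ between J genes, template counts carry counting and PCR error, and intervals cover counting error only.

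The members, gene lists and tests were chosen with earlier results of these data known. Each rearrangement was counted once per mouse and gene, whatever its templates. V and J gene counts were tested with edgeR 4.0.16 (quasi-likelihood, TMM, common dispersion, genes with at least 10 rearrangements in the fit) in R 4.3.3, with the mouse as a block within mice, and DESeq2 1.42.0 as an alternative. Single values per mouse were compared by two-sided exact permutation tests in Python 3.11.15 (35 divisions for R against NR, 128 sign patterns within mice, smallest p 0.0156), with Benjamini-Hochberg adjustment over 5 and 15 measures. Compared classes were single-template, larger (above 0.1%) and out-of-frame rearrangements with 2 templates up to the limit of their mouse. Named V genes are the 6 with most members and those past an adjusted p of 0.05, and named J genes the 4 with most members and those past it. Alternatives covered scaling, filters, limits of 0.0005 and 0.002, exactly 2 templates, weighting by templates, shared rearrangements, near neighbours and leaving out each mouse. The out-of-frame J comparison, removal of close relatives and restriction to TCRBJ02-07 were added after seeing the data. Both test types were tested on simulated data. A pooled overview table was not used.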

Additional observations from a re-analysis of the deposited data

Results flagged for a closer look

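TCRBV19-01 made up 15.3% of the small clones of 6NR, far from 10.1, 10.1 and 9.14% in the other NR mice (gap over range 0.841, above Dixon's 95% critical value for 4 samples). Mouse 6NR has 72 members, 11 of them TCRBV19-01 (95% Wilson interval 8.75 to 25.3%). It was the 1 value set apart in 17 such tests, and chance alone sets apart about 1 in 20 groups. None of the 15 within-mouse differences differed between R and NR (exact permutation test of the group labels, smallest adjusted p = 0.943).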

How the results depend on the processing

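The number of mice limits the precision of every test, and 6NR has 72 members. No R against NR call arose under any alternative run. Gene shares gave no sign that the replicate numbers pair mice. Deviations of the log2 V and J shares from the group mean correlated at -0.27, -0.32 and -0.23 between same-numbered R and NR mice over 33 genes. Correlations between differently numbered mice were not computed, so a pairing is not excluded. Shared nucleotide sequences followed the numbers in part. The mouse that listed most of the shared members was the same-numbered one for 1R (4NR, 23 members), 4NR (1R, 11), 2R (5NR, 10) and 6NR (3R, 7). For 3R it was 5NR (19 members) and for 5NR it was 3R (21). Whether these sequences reflect a pairing was not tested. With the replicate block, 0 V and 0 J genes passed, and the differences were -0.0842 residues, -0.224 N insertions, and 3.23 (without N), -0.703 (TCRBD02-01) and 3.72 (second J cluster) percentage points, where no p below 0.25 is possible.

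V gene calls against single-template rearrangements numbered 2, and 0 with DESeq2, 1 without the mouse block, 0 at exactly 2 templates, 1 at a limit of 0.0005, 5 at 0.002, 6 within TCRBJ02-07 and 1 to 3 leaving out 1 mouse (1 without 1R, 3 without 4NR or 6NR). Against larger clones the 5 V calls became 3 with DESeq2, 2 without shared rearrangements, 2 within TCRBJ02-07 and 3 to 5 leaving out 1 mouse. Against out-of-frame rearrangements the 11 became 4 at exactly 2 templates, 5 within TCRBJ02-07 and 6 to 12 leaving out 1 mouse. J calls against larger clones, 2 by default, were 0 with DESeq2, 1 without TMM, 1 without the filter, 0 without shared rearrangements, 4 at exactly 2 templates, 1 at 0.0005 and 0 to 1 leaving out 1 mouse. J calls against out-of-frame rearrangements, 1 by default, were 3 without TMM (1 higher, 2 lower), 4 without the filter, 0 at exactly 2 templates, 2 without close relatives and 1 to 2 leaving out 1 mouse (2 without 1R). J calls against single-template rearrangements were 11 to 12 leaving out 1 mouse. Mouse 6NR has no member at 0.0005.

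These within-mouse differences passed (adjusted exact permutation p = 0.0469) under another setting only. CDR3 length against single-template rearrangements was -0.181 residues at exactly 2 templates and -0.355 at 0.002, TCRBD02-01 was -5.01 and the second J cluster -7.40 points at exactly 2 templates. Against larger clones CDR3 length was -0.522 weighted by templates, N insertions 0.471 at 0.002 and 0.936 weighted, and the second J cluster -14.1 at exactly 2 templates and -9.95 at 0.002. Against out-of-frame rearrangements N insertions were -0.863 at exactly 2 templates and -0.611 at 0.002, and the second J cluster 8.05 at 0.002. The share without N insertions against larger clones turned from -3.19 to 4.37 points when weighted by templates. TCRBV13-03 against larger clones turned to 0.079 without shared rearrangements and 0.26 within TCRBJ02-07, and TCRBJ02-05 to 0.36 without shared rearrangements. The causes were not tested. Of the single-gene values named, 471 kept direction and side of the threshold, 77 kept the direction without passing and these 3 turned. Scaling moved the median log2 value of all genes by more than 0.1 without TMM (-0.17 for V against larger clones, -0.13 for J against out-of-frame) and with DESeq2 (0.27 for J against single-template). Settings that change the members, the filter or the mice moved it by -0.23 (V against larger clones at 0.0005) to 0.26 (the same at 0.002), beyond 0.1 in V and J comparisons alike.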

Other observations

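Trimming of the segments, which entered no test, was alike in the small clones of all mice. On average 2.49 to 3.08 bases were removed from the V segment and 2.93 to 3.18 from the J segment, with the highest V value in 6NR and the highest J value in 4NR. The D segment had lost 5.61 to 6.12 bases. Within TCRBJ02-07, 6 V genes differed between small clones and single-template rearrangements in edgeR, a comparison chosen after seeing the data, with 3 higher and 3 lower.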
